A study of Mus musculus with 16 samples.

Results

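4T1 is a mouse mammary carcinoma line, and its genome was profiled on a single array, 1 of the 16 arrays of the series. The array was taken by its cell line label, which gives 4T1 as a female Balb/C line of breast origin. DNA of 16 tumour line cultures, 1 per array, was labelled with the red dye Cy5. It was compared with a commercial mouse genomic DNA labelled with the green dye Cy3. The labels do not give the strain of this reference, which was the same on every array. CT26 and Renca are the other Balb/C lines and served to set inherited strain variants apart from changes of the tumour. The remaining 13 arrays carried 12 cultures of C57BI6 lines and the DBA/2 line P815. 4 of the 13 were of B16, with 2 differently labelled stocks each of B16F0 and B16F10. The sublines TRAMPC1 and TRAMPC2 made up 2 more.

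Tumour genomes gain and lose whole chromosomes, chromosome arms and short stretches of DNA, and a short stretch raised to many copies is called an amplicon. Comparative genomic hybridisation measures the amount of each stretch in a line relative to a reference. Inbred strains also differ from each other by inherited deletions and duplications, and differences of sequence under a probe can lower its signal as well. Such variants can appear in lines of a strain whatever their tissue, so sharing between lines is a guide to them and not a proof.

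The values are log2 ratios of line over reference, centred on the median of the autosomal probes, so a value is relative to the average copy number of the line and not an absolute count of copies. After filters, 233212 probes were used, of which 220668 were autosomal, at a median spacing of 7827 bp on build mm8. On the 4T1 array 99.5% of spots were well above background in the line channel and 99.7% in the reference channel. The probe-to-probe noise of the 4T1 array was 0.32, within the range of 0.22 to 0.41 over all arrays. Each profile was divided into segments of at least 5 probes. A segment was called a gain at a mean of 0.3 or more and a loss at -0.3 or less, and was called focal when shorter than 5 Mb. The error given with a segment mean is the standard error (SE) over its probes. It measures scatter of neighbouring probes only. With 1 array of 1 culture of 4T1 there is no replicate, so the difference between 4T1 and any other line carries no test.

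Gained segments held 9.26% of the autosomal probes of 4T1 and lost segments held 8.94%. The altered share of 18.2% was the 11th highest of 16. CT26 had 12.1% gained and 4.11% lost, and Renca had 8.61% gained and 30.2% lost. The 4T1 profile had 229 autosomal segments, the 6th highest number of the 16 arrays. The 103 altered segments comprised 15 large gains over 163.6 Mb, 18 large losses over 234.0 Mb, 29 focal gains and 41 focal losses. Of the 33 large changes, 27 were under 0.5 in size. With a threshold of 0.3, the segments just inside it were at 0.303 on chromosome 2, -0.303 on chromosome 15 and -0.304 on chromosome 7, and those just outside were at 0.299 on chromosome 3, 0.298 on chromosome 12 and -0.294 on chromosome 15. With the threshold at 0.5 the shares were 1.92% gained and 0.716% lost.

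**Figure D1:**
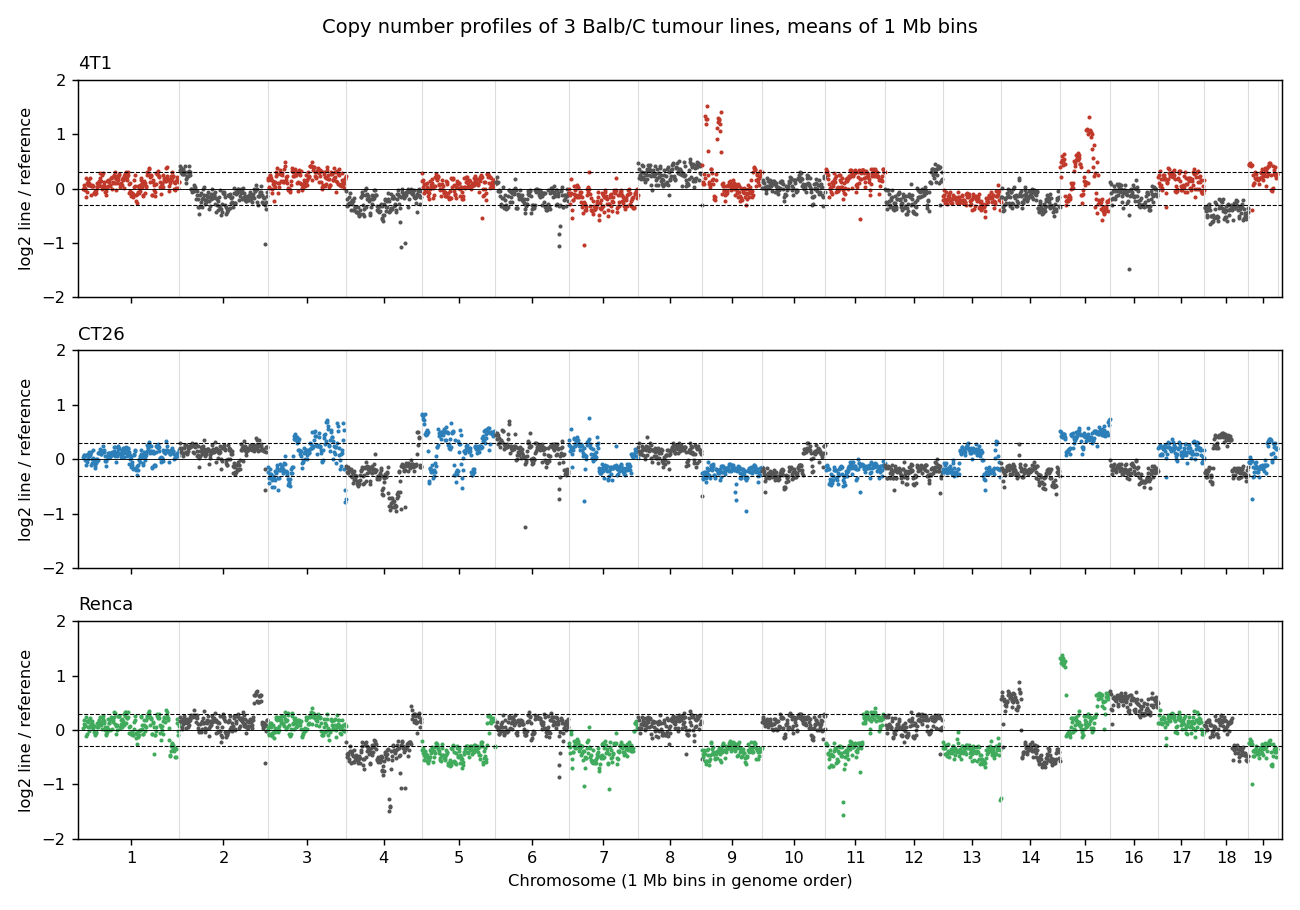
Log2 ratio of line over reference in 1 Mb bins for the 3 Balb/C lines, with autosomes in order along the horizontal axis and neighbouring chromosomes in alternate colours; dashed lines mark 0.3 and -0.3. In 4T1, the bins of highest ratio lie on chromosomes 9 and 15, chromosome 18 is low and chromosome 8 is high.

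Chromosome 18 was the most reduced autosome of 4T1. Its median was -0.39, and 83.1% of its probes lay in lost segments. CT26 was at 0.01 and Renca at -0.06 on the same chromosome, while the other 15 arrays ran from -0.42 in B16F0 ATCC through a median of -0.12 to 0.03 in EL4. 4T1 was thus 14th of 16 from the top, and 2 arrays were lower. The lowest stretch, chr18:13781549-23752826, was at -0.54 ± 0.01 (SE, 772 probes), against -0.01 in CT26 and 0.01 in Renca. The lowest of the other arrays was B16F0 ATCC at -0.50. Chromosome 8 was the most raised autosome, with a median of 0.30 and 46.9% of its probes in gained segments. CT26 was at 0.15, Renca at 0.14 and MC38, the highest array, at 0.42. These were the only autosomes of 4T1 with a median past 0.3 in either direction. The median profile of the 11 other line families was also subtracted from each probe. Chromosome 18 was then at -0.24 and chromosome 8 at 0.25, so neither was past 0.3. The 1 autosome past 0.3 was chromosome 6, at -0.30 before the profile was centred again. Chromosome 15 was at -0.27, so chromosome 18 was not the most reduced autosome on that scale. With centring on the mode or normexp background correction 3 autosomes were past 0.3, with chromosome 19 added at 0.31 and 0.34.

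Smaller whole-chromosome offsets put 4T1 at the end of the range on 4 autosomes. It was the highest of 16 on chromosome 3, at 0.21 against 0.13 in the next array, Hepa1-6, and on chromosome 9, at 0.12 against 0.11 in B16F10 NCI. It was the lowest of 16 on chromosome 6, at -0.15 against -0.05 in PAN02, and on chromosome 2, at -0.11 against -0.10 in EL4. The gaps on chromosomes 9 and 2 were small beside the spread of the other arrays. Within chromosome 2 the first 22.0 Mb, chr2:3010301-24996224, were gained at 0.30 ± 0.01 (SE, 1891 probes), and chr2:94333950-101216563 was lost at -0.39 ± 0.02 (SE, 289 probes). On chromosome 6 the losses at chr6:73805421-82272161 (-0.33) and chr6:102074466-112162850 (-0.31) had values of -0.00 and 0.01 in CT26 and -0.03 and 0.00 in Renca, and no other array was past -0.3 there.

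The longest gains of 4T1 were on chromosomes 8, 2 and 3. The longest, chr8:70704699-99365073 (28.7 Mb, 2901 probes), was at 0.36, against 0.22 in CT26 and 0.19 in Renca, and was followed by chr8:107335827-115190995 at 0.44 and chr8:119214229-132071242 at 0.36. MC38 was higher in these stretches, at 0.56, 0.60 and 0.52. On chromosome 3, chr3:91330717-109777973 (18.4 Mb) was at 0.30 in 4T1 and 0.31 in CT26. On chromosome 19, chr19:3147156-9230379 was at 0.43 with -0.04 in CT26 and -0.23 in Renca, and ID8 was the highest array there at 0.82.

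The longest losses were on chromosomes 18, 4, 14, 13 and 7. The longest, chr18:40015585-81049137 (41.03 Mb, 3725 probes), was at -0.37, against -0.00 in CT26 and -0.19 in Renca. On chromosome 4, chr4:64403313-86714686 (22.3 Mb) was at -0.37, with -0.35 in CT26 and -0.55 in Renca. On chromosome 14, chr14:78748267-94765071 (16.02 Mb) was at -0.38, with -0.42 in CT26, -0.59 in Renca and a median of -0.38 over the other 15 arrays. The long losses of chromosomes 4 and 14 were therefore shared with both Balb/C lines, and those of chromosome 18 before its last 9.67 Mb with neither. Low values on chromosome 4 were not limited to Balb/C lines. Its whole-chromosome median was -0.21 in 4T1, and the median over the other 15 arrays was also -0.21. On chromosome 13, chr13:77195308-90536296 was at -0.34, and on chromosome 7, chr7:50160942-63393330 was at -0.35. Both were also low in Renca, at -0.56 and -0.55, and not in CT26, at -0.09 and 0.09.

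Differences from the Balb/C lines were unevenly spread over the chromosomes. Of 2396 autosomal bins of 1 Mb, 12.4% (296 bins) were higher in 4T1 than the mean of CT26 and Renca by 0.3 or more, and 12.9% (310 bins) were lower by as much. On chromosome 19, 55 of 59 bins were higher. The chromosome 19 median was 0.28 in 4T1, -0.01 in CT26 and -0.33 in Renca, so 4T1 was above both, and Renca was itself reduced. On chromosome 11, 73 of 119 bins were higher, with medians of 0.20 in 4T1, -0.17 in CT26 and -0.11 in Renca, and the other arrays reached 0.28 in MC38. Chromosome 9 had 68 of 121 bins higher, with medians of 0.12 in 4T1, -0.23 in CT26 and -0.36 in Renca, the lowest array. Bins lower in 4T1 were on chromosome 2 (90 of 177), chromosome 6 (66 of 147), chromosome 18 (50 of 88), chromosome 15 (40 of 101) and chromosome 14 (28 of 118), among others. Chromosome 1 had only 3 of 193 bins higher and chromosome 13 only 2 of 117, with 0 lower on each. Chromosomes 10 and 17 had none in either direction. The Balb/C lines were themselves above 0 on chromosomes 15, 2 and 6. CT26 had medians of 0.44, 0.14 and 0.16 there, and Renca of 0.38, 0.18 and 0.12. Against CT26 alone 839 bins were past 0.3, against Renca alone 867, and 606 against their mean.

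Steps between copy number levels were most frequent in 4T1 on chromosomes 9 and 15. A step is a change of 0.5 or more between neighbouring segments, and 4T1 had 102 autosomal steps. Chromosomes 9 and 15 carried 14 and 20 of them, which is 33.3% of all its steps, against 0% to 8.51% in the other 15 arrays. The next highest numbers were 6 steps on chromosome 9 in CT26 and 12 on chromosome 15 in EL4, and the median of the other arrays was 0 on each. Chromosomes 9 and 15 were picked for their number of steps in 4T1, so this gap follows from the choice and is a description. Steps of other arrays gathered on other chromosomes, such as chromosome 4 with 15 of 49 in B16F0 ATCC and 10 of 35 in ID8. On chromosomes 9 and 15, 30 of 34 steps of 4T1 had no step of the same sign within 50 kb in CT26 or Renca, nor in any of the 13 other arrays. On the remaining autosomes 13 of 68 steps, or 19.1%, were absent from both Balb/C lines at that distance. On chromosomes 9 and 15 CT26 had only 6 and 2 steps and Renca 2 and 4, so few matches were possible there. The contrast in matching is therefore a description too.

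Chromosome 9 alternated between high and lower segments. Segments with a 4T1 mean of 0.7 or more are called high here, so the contrast of high with intervening segments in 4T1 was set by that choice and is a description. From its first probe, 8 high segments lay within chr9:3088282-41637258, a span of 38.5 Mb, and together held 14.98 Mb and 1490 probes. Their mean was 1.26 ± 0.01 (SE over probes), a 2.39-fold ratio to the autosomal median, and single segments ran from 0.79 to 1.54. Leaving out a short low interval shared with the Balb/C lines, the 7 segments between them covered 23.4 Mb at a mean of 0.13, with single values from -0.14 to 0.33. Over the high segments CT26 was at -0.24 and Renca at -0.44. The other 15 arrays ran from -0.44 through a median of -0.09 to 0.09, so the level of 4T1 lay above their range.

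The high pieces of chromosome 9 differed widely in length. The first, chr9:3088282-3264326, was 176 kb at 1.16 ± 0.10 (SE, 19 probes). The next, chr9:9006708-14215289, was 5.21 Mb at 1.33 ± 0.02 (366 probes), with no other array above -0.02. Short pieces followed at chr9:15556406-15622539 (66.1 kb, 1.44 ± 0.11, 7 probes) and chr9:30926554-30960341 (33.8 kb, 1.54 ± 0.13, 6 probes). The segment chr9:31623398-32262170 was at an intermediate 0.79, and chr9:32267219-33732205 next to it at 1.33. The longest piece, chr9:34227262-41304025, was 7.08 Mb at 1.25 ± 0.01 (927 probes), and the last, chr9:41327245-41637258, was at 1.37. Between these last pieces lay a 15.3 kb interval, chr9:41308286-41323571, at -2.97 ± 1.61 (5 probes). CT26 was at -3.30 and Renca at -3.81 in that interval, so a low value shared by the Balb/C lines sat inside the gain of 4T1. Beyond the block, the next 34.3 Mb returned to 0.03.

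**Figure D2:**
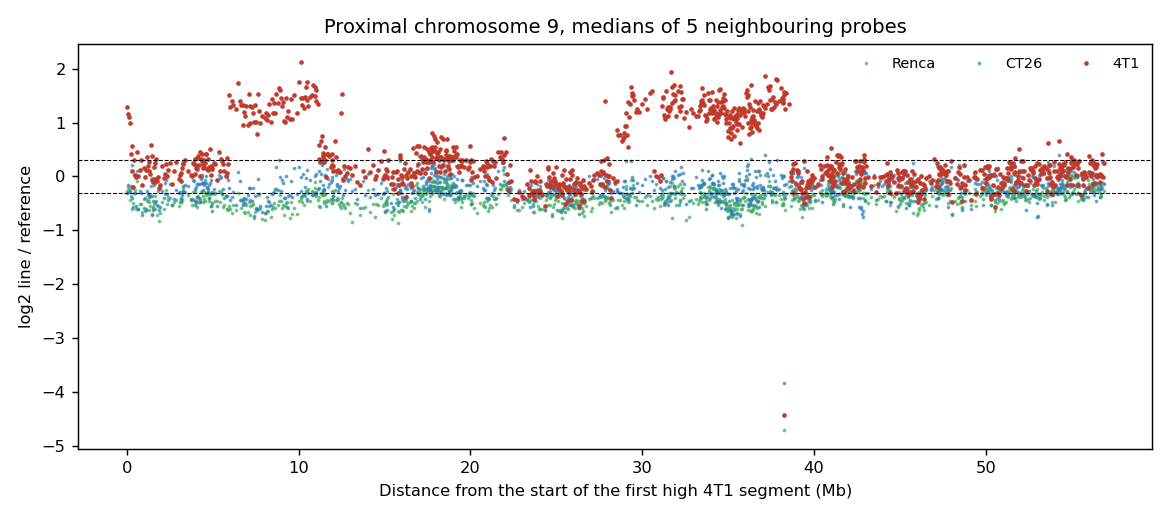
Medians of 5 neighbouring probes on proximal chromosome 9 in 4T1, CT26 and Renca, by distance in Mb from the start of the first high segment; dashed lines mark 0.3 and -0.3. 4T1 moves between segments with a mean of 1.26 and intervening ones with a mean of 0.13, while CT26 and Renca stay near -0.24 and -0.44 apart from the low interval that all 3 share.

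Chromosome 15 had more high pieces, over a wider range of levels. Within chr15:54956956-79498681, a span of 24.5 Mb, 9 high segments held 14.0 Mb and 1315 probes at a mean of 1.04 ± 0.01 (SE over probes), with single segments from 0.86 to 2.59. Leaving out a short low segment shared with the Balb/C lines (chr15:77313925-77367588), the 7 intervening segments covered 10.3 Mb at a mean of -0.11, with single values from -0.30 to 0.34. Chromosome 15 was raised in many lines of the series. Over the same high segments CT26 was at 0.43 and Renca at 0.23, and the other 15 arrays ran from -0.11 through a median of 0.38 to 0.61 in ID8. The high segments were chosen on 4T1 as on chromosome 9, so these levels are a description.

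The highest segment of the 4T1 genome was chr15:61254105-61460967, 207 kb at 2.59 ± 0.11 (SE, 13 probes), or 6.03-fold over the autosomal median. Its single probes ran from 2.03 to 3.39. In the same interval CT26 was at 0.48 and Renca at 0.16, and the other 15 arrays ran from -0.13 in EL4 through a median of 0.51 to 1.26 in LL2, with the next array at 0.69. The 4T1 value was above all of them. With normexp background correction it was 3.03, and after subtraction of the other families' median it was 2.11. A second peak, chr15:58705070-58943103, was 238 kb at 1.73 ± 0.06 (36 probes), against 0.52 in CT26, 0.33 in Renca and at most 0.63 in the other arrays. The segments around the highest one were at 1.23 (chr15:60812322-61232214) and 0.99 (chr15:61469826-69216077).

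Further pieces of chromosome 15 lay on either side. The first of the block, chr15:54956956-58364258, was 3.41 Mb at 1.08. Distal pieces were chr15:72185390-73372239 at 0.86, chr15:75769905-75847599 at 0.99, chr15:78593656-79146578 at 1.06 and chr15:79300111-79498681 at 0.93. Broader gains of 0.48 (chr15:3091692-12896661) and 0.53 (chr15:30181337-44822182) preceded the block. The former was higher in Renca, at 1.28. From the last piece to the end of the chromosome, chr15:79502573-103482674 (24.0 Mb, 2937 probes) was at -0.29 in 4T1, just short of the loss threshold. CT26 was at 0.53 and Renca at 0.59 there, and the lowest of the other 15 arrays was P815 at -0.07. The distal end of chromosome 15 was therefore lower in 4T1 than in any other array, although 40.9% of the chromosome's probes lay in gained segments. The chromosome median of 0.11 hid both directions, and it became -0.27 after subtraction of the other families' median.

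**Figure D3:**
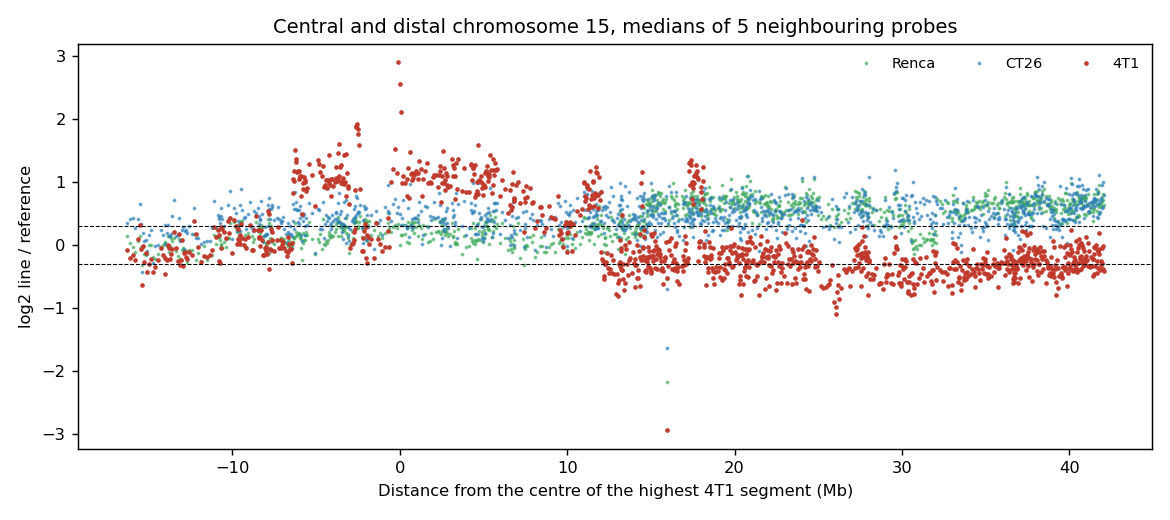
Medians of 5 neighbouring probes on central and distal chromosome 15 in 4T1, CT26 and Renca, by distance in Mb from the centre of the highest 4T1 segment; dashed lines mark 0.3 and -0.3. 4T1 peaks at a segment mean of 2.59 and ends at -0.29, where CT26 is at 0.53 and Renca at 0.59.

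A nested loss was found on chromosome 16. It covered chr16:40871817-41567977, 696 kb and 60 probes, at a mean of -2.89 ± 0.22 (SE). The innermost part, chr16:41239801-41503325 (264 kb, 18 probes), was at -5.10 ± 0.30. In 4T1, 13 of these 18 probes were not well above background. With such signals replaced by the floor of the array, the line was at least 14.7-fold lower than the reference. This bound holds only for the background subtraction of the deposited signals. The flanks, chr16:40871817-41231891 and chr16:41511144-41567977, were both at -1.94, with SE of 0.11 (32 probes) and 0.10 (10 probes). The flanks were thus reduced to the same level on both sides.

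The chromosome 16 loss was deeper in 4T1 than in the other 15 arrays. Over the innermost part CT26 was at -0.32 and Renca at 0.33, and the other arrays had a median of -0.13. P815 was the lowest of them at -1.20, with -1.25 and -1.09 in the flanks, and EL4 followed at -0.56. The remaining arrays were between -0.32 and 0.33. The depth depends on how background is treated: with normexp correction the innermost part was at -1.57 and the flanks at -1.38.

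**Figure D4:**
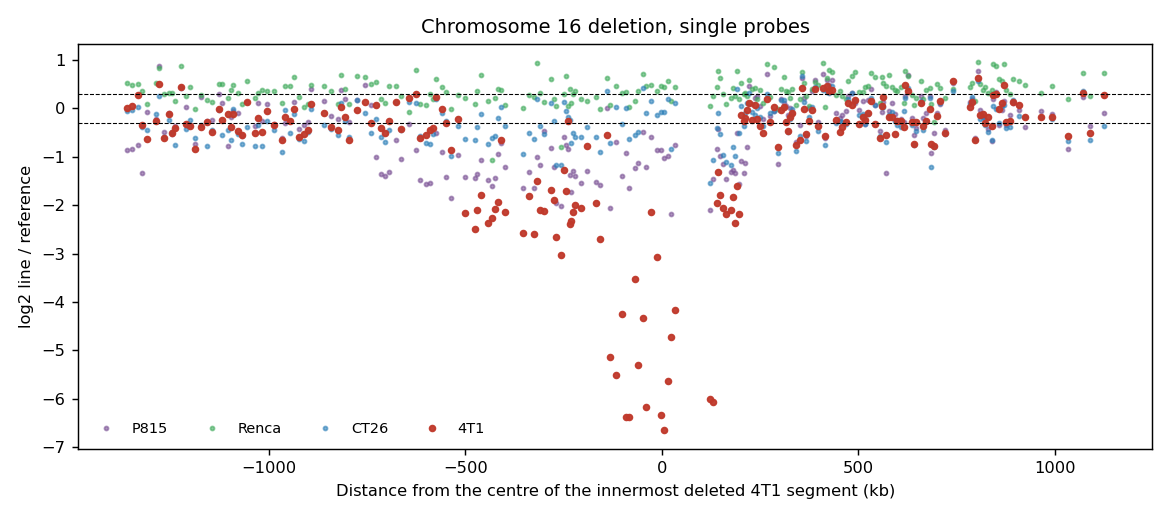
Log2 ratios of single probes around the chromosome 16 loss in 4T1, CT26, Renca and P815, by distance in kb from the centre of the innermost segment; dashed lines mark 0.3 and -0.3. 4T1 falls to -1.94 in the flanks and -5.10 in the centre, P815 to about -1.20, and Renca stays above 0 on average.

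The deepest loss on chromosome 4 was shared with most lines. The segment chr4:88748620-88776278 was 27.7 kb at -5.42 ± 0.55 (SE, 6 probes), and 5 of 6 probes were not well above background. Under the background subtraction of the deposited signals, the line was at least 19.2-fold lower than the reference. 11 of the other 15 arrays were past -0.3. CT26, LL2, ID8, P815 and the B16 sublines were between -5.86 and -4.56. MC38 was at -2.88, Renca at -1.06 and EL4 at -0.79, whereas Hepa1-6, PAN02, TRAMPC1 and TRAMPC2 lay between -0.18 and -0.04. With normexp correction the 4T1 value was -1.90. A short gain at chr4:11121120-11145868 had a mean of 1.67 ± 0.70 (5 probes), against 0.48 in CT26 and 0.51 in Renca, and its single probes ran from -0.08 to 3.08.

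Chromosome 5 held a pair of short losses. The longer, chr5:124073246-124745823, was 673 kb at -0.86 ± 0.04 (SE, 99 probes). CT26 was at 0.25 and Renca at -0.22, the lowest of the other arrays, whose median was 0.14, so no other array passed the loss threshold. The shorter, chr5:132322973-132370234, was 47.3 kb at -1.29 ± 0.10 (8 probes). CT26 was at 0.35, Renca at -0.57 and the median of the other 15 arrays at -0.08.

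The Balb/C lines were used to divide the altered segments of 4T1. A segment was counted as shared where a Balb/C line was past 0.3 in the same direction over the same probes. Of the 103 altered segments, 36 were shared with neither CT26 nor Renca. By kind, these were 10 of 15 large gains, 8 of 18 large losses, 11 of 29 focal gains and 7 of 41 focal losses. Of the 36, 5 large gains, 2 large losses, 6 focal gains and 6 focal losses were past the threshold in none of the 15 other arrays. Focal losses were mostly shared, with 28 of 41 present in both Balb/C lines.

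Among focal changes past 1 in size, the count depended on the rule for sharing. With the 0.3 rule, 5 of the 15 focal gains past 1 were in neither Balb/C line, all on chromosome 9, and 0 of the 26 focal losses were in neither. In the chromosome 16 segments CT26 was between -0.62 and -0.32, and Renca was at -0.57 in the shorter chromosome 5 loss, which counts as shared under that rule. Where a Balb/C line had to reach at least 50% of the 4T1 value, 10 of the 15 focal gains past 1 were in neither line, of which 5 lay on chromosome 9 and 4 on chromosome 15. 21 of the 26 focal losses past 1 were in both lines, and 4 were in neither. The latter were the 3 segments of the chromosome 16 loss and the shorter chromosome 5 loss. The remaining loss, shared with CT26 alone at that level, was that on chromosome 4 at -5.42.

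**Figure D5:**
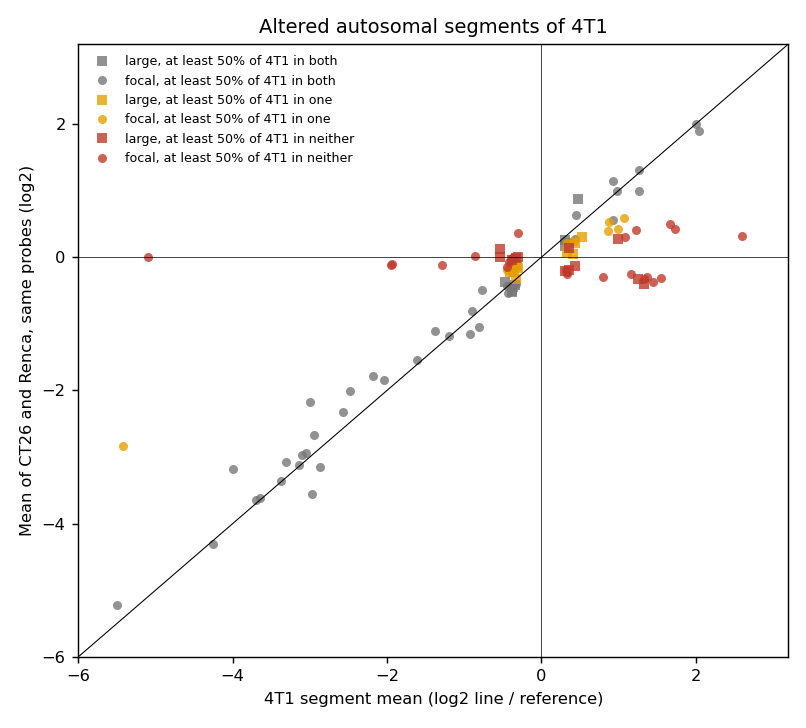
Mean of each altered autosomal 4T1 segment against the mean of CT26 and Renca over the same probes, both in log2; colours give whether both, one or neither Balb/C line reached at least 50% of the 4T1 value, squares are large and circles focal segments, and the line marks equal values. Most deep focal losses lie along the line, except the chromosome 4 loss at -5.42 and the chromosome 16 loss, while the gains past 1 on chromosome 9 lie below 0 on the vertical axis.

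Of the 28 focal losses shared with both Balb/C lines, 22 were past 1 in size in 4T1. Examples follow. The lowest focal segment of 4T1, chr11:116564047-116580851 (16.8 kb, 5 probes), was at -5.50 ± 0.32 (SE), with -5.42 in CT26, -5.02 in Renca and -5.71 in the DBA/2 line P815. In 4T1, 1 of these 5 probes was not well above background. The C57BI6 arrays were also low there, from -2.04 to -1.52, a smaller departure. At chr11:70987724-71109796 (122 kb, 11 probes) 4T1 was at -3.70, CT26 at -3.60 and Renca at -3.68, while the median of the other 15 arrays was 1.00. The longest shared focal loss past 1 was chr4:112341954-113724872, 1.38 Mb at -1.20 ± 0.16 (54 probes), with -1.08 in CT26, -1.27 in Renca and a median of 1.20 over the other 15 arrays. At chr19:9239304-9299188 (59.9 kb, 6 probes) 4T1 was at -4.26, CT26 at -3.87 and Renca at -4.74, against a median of 0.33 in the other 15 arrays. A cluster of 4 such losses lay between chr6:129968754-130120994 at -2.57 and chr6:132562463-132633520 at -4.00. Some focal segments were altered in all 16 arrays, such as chr3:91238803-91307734 at 2.00 in 4T1 and from 1.53 to 2.35 in the others, chr5:62046391-62093143 at 2.04 and from 1.37 to 2.49, and chr2:77680396-77792980 at -2.18 and from -2.09 to -1.72. Such segments do not set any line apart.

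The strain label of 4T1 was checked with probes chosen without its array. CT26 and Renca were compared with 8 C57BI6 families in limma, with 4T1 and P815 left out, and probes were called at a Benjamini-Hochberg adjusted p under 0.05. Of 220233 autosomal probes tested, 1.67% (3679 probes) were lower in the Balb/C lines and 0.259% (571 probes) were higher. 4T1 was nearer to the Balb/C mean than to the C57BI6 mean at 3587 of these 4250 probes, or 84.4%, against 43.3% of all probes tested. P815 was nearer at 55.4%, against 41.4% of all probes. At the probes lower in Balb/C, the medians were -0.68 in the Balb/C lines, 0.61 in the C57BI6 families, -0.45 in 4T1 and -0.11 in P815. At the probes higher in Balb/C they were 0.47, -0.51, 0.38 and -0.12. A refit without CT26 called another set of probes, from Renca alone. At those called higher, 4T1 was at -0.14, against 0.63 in Renca and -0.45 in the C57BI6 families. With 1 array in that arm, strain variants and gains of Renca itself cannot be told apart. The refit therefore does not show what the first set rested on. Of the 26 focal losses of 4T1 past 1, 20 contained at least 1 called probe. Called probes were also present in 34 of all 41 focal losses, 15 of 29 focal gains, 14 of 15 large gains and 18 of 18 large losses, so their presence does not set the deep losses apart.

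The number of called probes, the balance of their directions and the share all depended on the processing. Leaving out a Balb/C line leaves 1 array in that arm, which is then assumed to vary like the C57BI6 families. Without Renca 2014 probes were called, without CT26 3649, and with arrays of the same scan group 2393. 4T1 was nearer to Balb/C at 88.0%, 61.1% and 94.7% of them. With normexp correction 152 probes were called and 4T1 was nearer at 93.4%. Of these probes 38 were lower and 114 higher in the Balb/C lines, whereas the main run had 3679 lower and 571 higher. The excess of probes lower in Balb/C was therefore not kept under that correction. All 3 Balb/C arrays were in the scan group of 6 arrays.

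Along the X chromosome 4T1 had a median of -1.04, between -1.28 and -0.34 in the other arrays, and all of its X segments were below -0.3. 3 X segments stood above the rest of the chromosome in 4T1. Relative to each array's own X median, chrX:80976840-89373682 (8.40 Mb, 605 probes) was at 0.46 in 4T1, -0.09 in CT26, -0.17 in Renca and at most -0.05 in the others. The adjoining chrX:89384832-92679057 (3.29 Mb, 345 probes) was at 0.72, against 0.06 in both Balb/C lines and at most 0.37. The third, chrX:107791158-109699965 (1.91 Mb, 171 probes), was at 0.34, against at most 0.10. In all 3 segments 4T1 was the highest of 16 arrays on this relative scale. On the Y chromosome its median was -0.72, with 34.4% of Y probes well above background. TRAMPC1 and TRAMPC2 were at 3.13 and 3.14, each with 99.7% of Y probes well above background. All other arrays had Y medians from -0.999 in EL4 to -0.55 in LL2. Their shares above background ran from 24.3% in B16F0 ATCC to 40.8% in Hepa1-6. The Y values of 4T1 lay within these ranges, far below those of TRAMPC1 and TRAMPC2.

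A list of 40 cancer, mammary and immune genes was placed by chromosome only, since probes were named by position alone and the gene table is of a later build. These genes are given as background on what the chromosomes carry. Whether any segment above holds one of these genes was not determined. Chromosome 15, with the highest segment, carries Myc, a transcription factor that drives growth, its non-coding neighbour Pvt1 and the luminal keratin gene Krt8. Chromosome 9 carries the apoptosis inhibitors Birc2 and Birc3, the coactivator Yap1, the collagenase Mmp13 and the progesterone receptor Pgr. Chromosome 4 carries the cell cycle inhibitors Cdkn2a and Cdkn2b and the interferon gene Ifnb1. The reduced chromosome 18 carries Apc, an inhibitor of the Wnt pathway, and Smad4, which transmits TGF-beta signals. The raised chromosome 8 carries the receptor kinase Fgfr1 and the E-cadherin gene Cdh1, and chromosome 19, at 0.28, carries the interferon receptor kinase gene Jak2 and Cd274, which encodes PD-L1.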

How the data were processed

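Genomic DNA of 16 cultures was hybridised to 2-colour arrays, 1 per culture. The deposited spot intensity values came from Agilent Feature Extraction, per the submitters' processing notes, version 10.7.3.1 per the file headers. They were background-subtracted and scaled between dyes by a linear factor, per the file headers. Red over green is deposited as a log10 ratio per spot and, in the series table, as a log2 value, the latter within 5.06e-05 of the log2 ratio of processed signals. Flags for background and outliers are deposited as 0 or 1. Probe positions were on mm8, per the file headers.

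From these values, log2 ratios were computed without control or outlier-flagged spots (155 spots on the 4T1 array), averaged per probe and centred on the autosomal median, with no loess. Segments came from exact optimal partitioning on squared error (penalty factor 6), at least 5 probes and a limit of 3 noise SDs around the running median of 5 probes. Steps were matched within 50 kb, a distance chosen after the data were seen. Fold bounds replace signals not well above background by the lowest signal above it. The strain check used limma 3.58.1 in R 4.3.3, after averaging sublines into 12 families; the rest used Python 3.11.15 and numpy 2.4.6. Segmentation and strain check were tested on simulated data. Alternatives were another centring, normexp (offset 50, on median signals; mean signals, as first planned, were not used here), other thresholds, penalties and filters, subtraction of the other families' median, and leaving out a Balb/C line. Chromosomes were named where the 4T1 median was past 0.3 or at the end of the range of 16 arrays, and segments from the 10 longest gains and losses, the 10 highest and 10 lowest focal segments past 1, and focal segments past 1 in neither Balb/C line. The other segments of chromosomes 9 and 15, the longer chromosome 5 loss, the further chromosome 2 and 6 segments, the X segments and the genes were chosen after values were seen. Genes were placed through a RefSeq table on GRCm38.p6, by chromosome only. The members, lists and rules were chosen with earlier results of these data known.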

Additional observations from a re-analysis of the deposited data

How the results depend on the processing

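Of 71 alternative values of the main counts and extremes over 17 settings, 48 kept within a set limit, 23 moved beyond it and 0 reversed. The limit was 1.5 times for a count and was set from the SE for an extreme. Subtracting the other families' median left 1 autosomal median past 0.3, 184 focal and 21 large segments, 3.81% gained, 2.11 in the highest and -3.70 in the lowest focal segment. It also reversed 3 signs, at the chromosome 15 median (-0.27) and at the first pair of X segments (0.44 and 0.50). Normexp correction gave 38 focal segments, 16.1% gained, 3.03 and -3.63 in the extreme focal segments, and 152 strain probes. Centring on the mode gave 16.3% gained. A doubled penalty gave 34 focal and 13 large segments and 5.30% lost, and a halved one gave 137 focal segments. A threshold of 0.2 gave 22.8% gained and 16.6% lost, and one of 0.5 gave 1.92% and 0.716%. Bins past 0.5 against the Balb/C mean numbered 175. The scan group of 4T1 alone gave 2393 strain probes, and leaving out a Balb/C line gave 2014 to 3649. The cause of these shifts was not tested. Probe spacing and noise limit what is seen: changes of few probes and small size can be missed, and means over probes not well above background are uncertain in size. No paired analysis was possible because each culture has 1 array.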
